A study of Emberiza melanocephala with 15 samples.

Results

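Some genes differ between individuals that share a season, an hour and a cage regime, and these genes are described here for the hypothalamus of the blackheaded bunting (Emberiza melanocephala), a migratory songbird. The members are the 200 assembled genes whose level differed most between 2 birds of the same state and hour, out of 16068 genes with a mean summed count of at least 50 and 317533 assembled genes in all. The members were chosen by this measured difference alone. The level is the count scaled by library size (CPM), taken as log2(CPM + 1), and an assembled gene is the sum of its Trinity transcripts. In each of the 7 groups of 2 birds the absolute difference of this level was taken, and genes were ranked by the median of the 7 differences. Since measured values chose the members, the size of these differences is a description and was not tested.

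RNA-Seq libraries were made from 15 adult males caught from the wild, 1 library per bird. The 8 photosensitive birds came from short days and the 7 photorefractory birds from long days. On the day of sampling the lights were left on until each bird was killed. Hours 10 and 14 lay within the usual light period of the photorefractory birds, and hours 18 and 22 beyond it. For photosensitive birds every sampling hour lay beyond the usual light period, so the same hour was an unlike light exposure in each state. Birds were killed 10, 14, 18 or 22 h after lights on, with 2 birds per state and hour except photorefractory hour 22, which had 1. That bird entered no difference between birds, but it counted toward the minimum mean of 50, which 19 of the 200 members would miss without it. Whole hypothalami were extracted, so fewer cells of a type and less RNA per cell cannot be told apart. The deposited tables carry assembly identifiers without gene names, so members are given by identifier, no function is assigned to any of them, and the tissue could not be checked against marker genes.

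In seasonally breeding birds the hypothalamus reads day length and sets the reproductive axis. In the photosensitive state a long day raises thyroid hormone activation in the mediobasal hypothalamus and then the secretion of gonadotropin-releasing hormone. In the photorefractory state, reached after a long stay on long days, the same light no longer stimulates the axis and the gonads are regressed. The hypothalamus also holds neurons and glia of many kinds in small nuclei, each with its own transcripts.

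Libraries held 3176062 to 9403923 pseudoaligned reads, with a median of 5628882. The 3 birds of hour 22 had the deepest libraries, at 8068941, 9403923 and 8951449 reads, and between 148420 and 156142 assembled genes above 0, against 67260 to 140660 in the other 12. The mean fragment length was 231 nt in bird 1 and 209 nt in bird 2 of photorefractory hour 18, and 241 to 263 nt elsewhere. Photosensitive hour 18 bird 2 stood apart, with the lowest level of all 15 birds for 4479 of the 16068 genes and the highest for 2666. A count of 0 allows up to 3 counts, which is 0.319 CPM in the deepest and 0.945 CPM in the shallowest library and covers counting error only.

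The median difference of the 200 members was 1.31 on the log2 scale, a 2.49-fold difference between 2 birds that were alike by label. Over the 16068 genes it was 0.303, or 1.23-fold. The members thus spanned a wide range above the rest, from 1.11 to 4.51, and the last corresponds to 22.8-fold. The difference was a median of 4.93 times the counting error expected from the counts of the 2 birds, and 2.16 times at the lowest, against a median of 1.88 over all 16068 genes. The list ended at no step in the values. TRINITY_DN93332_c0_g3 at rank 200 had a median difference of 1.1056, and TRINITY_DN88951_c5_g1, the first gene outside, had 1.1053.

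The groups did not contribute equally. The members' median difference was highest at photosensitive hour 10, with 1.76 on the log2 scale against 0.364 for all genes, and 167 of the 200 members differed over 2-fold between the 2 birds there. Photorefractory hour 18 followed with 1.62 against 0.356 and 166 members, and photosensitive hour 18 with 1.61 against 0.444 and 164 members. The smallest difference was found at photosensitive hour 14, with 0.498 against 0.223 and 59 members. Between these lay photosensitive hour 22 with 1.17, photorefractory hour 10 with 1.14 and photorefractory hour 14 with 0.993, against 0.204, 0.267 and 0.314 for all genes. Without the photosensitive hour 18 pair 138 of the 200 members were chosen again, and without the photorefractory hour 18 pair 132.

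**Figure D1:**
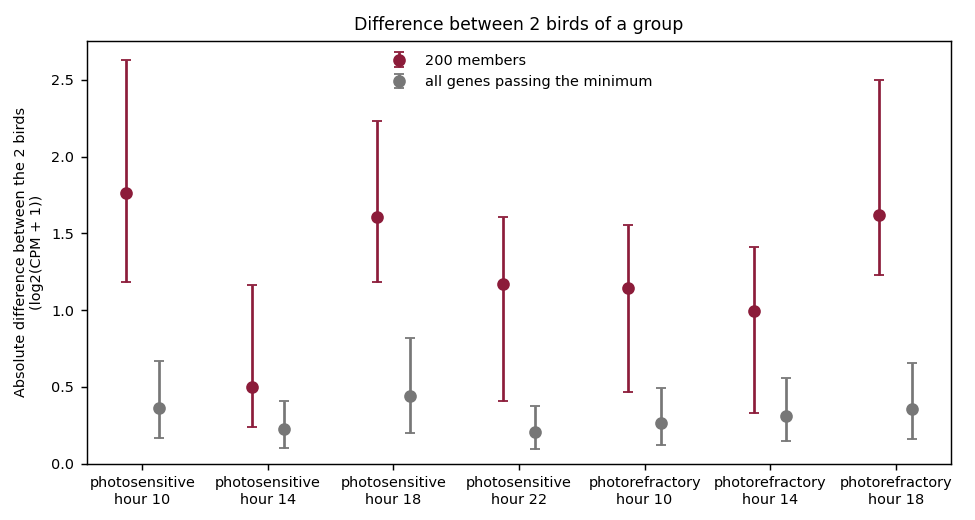
Absolute difference of log2(CPM + 1) between the 2 birds of each of the 7 groups, as the median (point) and the quartiles (bars) over the 200 members and over the 16068 genes passing the minimum. The members' medians ran from 0.498 at photosensitive hour 14 to 1.76 at photosensitive hour 10.

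At the top of the ranking stood genes with a high level in a few birds and almost no reads in the rest. TRINITY_DN93682_c0_g1, ranked first, had 107 CPM in bird 2 and 0.137 CPM in bird 1 of photosensitive hour 10, 49.1 CPM in bird 1 and 0.832 CPM in bird 2 of photosensitive hour 18, and 21.8 CPM in bird 1 and 0 in bird 2 of photosensitive hour 22. In photorefractory birds it had 162 CPM in bird 2 and 1.16 CPM in bird 1 of hour 18, and 17.8 CPM in the lone bird of hour 22. In the other 6 birds, those of photosensitive hour 14 and photorefractory hours 10 and 14, it lay between 0.177 and 1.07 CPM. High birds were therefore found in both states and at hours 10, 18 and 22, with a bird near 0 beside each of the 4 that had a partner.

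The genes ranked 3 to 6 were high in the same 5 birds. TRINITY_DN98389_c2_g1 had 55.6 CPM in photosensitive hour 10 bird 2, 18.8 CPM in hour 18 bird 1, 26.9 CPM in hour 22 bird 1, 38.4 CPM in photorefractory hour 18 bird 2 with 21.6 CPM in the lone photorefractory bird of hour 22, and at most 0.524 CPM in the other 10. TRINITY_DN80051_c3_g4 had 49.0, 23.3, 16.0, 73.4 and 7.71 CPM in these 5 birds in the same order and at most 1.23 CPM in the other 10. TRINITY_DN93471_c4_g1 had 47.3, 15.9, 28.6, 38.1 and 25.6 CPM and at most 0.41 CPM in the other 10. TRINITY_DN99012_c1_g2 had 33.8, 11.0, 56.9, 15.1 and 35.2 CPM and at most 1.49 CPM in the other 10. In none of these genes did the 5 birds overlap with the other 10, and the level of the 5 differed in order from gene to gene. The sum of TRINITY_DN80051_c3_g4 and its neighbour in the assembly, TRINITY_DN80051_c3_g1, differed by a median of 0.162 between birds alike. The member alone differed by 3.81, so it is uncertain as the level of a locus. That neighbour was looked at after its values were seen.

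**Figure D2:**
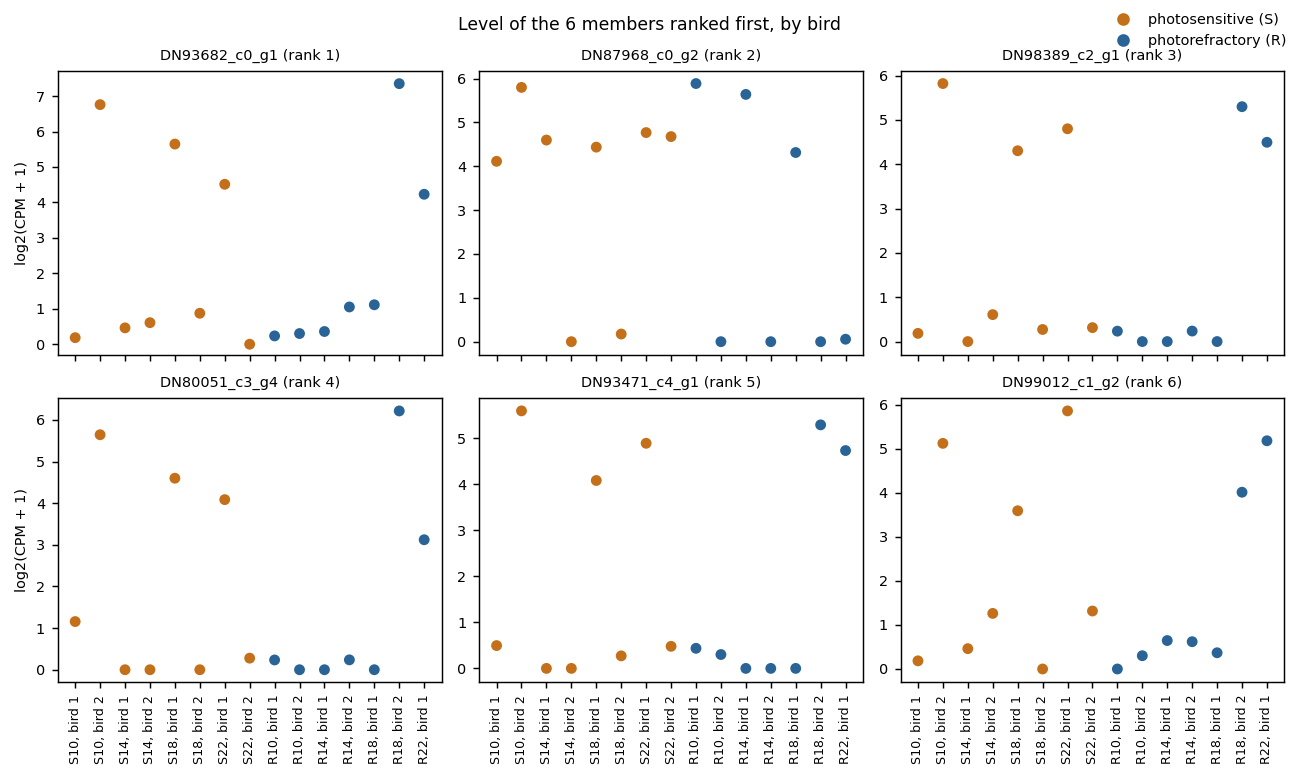
Level of the 6 members ranked first in each of the 15 birds, as log2(CPM + 1), with photosensitive birds (S) and photorefractory birds (R) in separate colours and the hour in the label. The genes ranked 1, 3, 4, 5 and 6 were high in the same 5 birds, and the gene ranked 2 was high in another set of 9 birds.

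TRINITY_DN87968_c0_g2, ranked second, had another pattern. In photosensitive birds it had 16.3 and 54.7 CPM (hour 10), 23.2 CPM in bird 1 of hour 14, 20.7 CPM in bird 1 of hour 18, and 26.3 and 24.6 CPM (hour 22). In photorefractory birds it had 58.2, 48.9 and 18.9 CPM in bird 1 of hours 10, 14 and 18. The other 6 birds had 0.129 CPM or less, under 3 counts each, so 9 birds lay well above the limit of detection and 6 did not reach it. Its neighbour in the assembly, TRINITY_DN87968_c0_g1, which was looked at after its values were seen, was found in all birds, between 53.1 and 247 CPM. The summed level of their assembly component differed by a median of 0.320 between birds alike, against 4.31 for the member alone, which held 15% of the component's counts.

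The member with the most reads was TRINITY_DN92327_c2_g6 at rank 8, with a mean of 351 CPM. In photosensitive birds it had 0.273 and 329 CPM (hour 10), 1.70 and 14.7 CPM (hour 14), 0.394 and 1.46 CPM (hour 18), and 617 and 691 CPM (hour 22). In photorefractory birds it had 1.24 and 1237 CPM (hour 10), 7.48 and 7.68 CPM (hour 14), 0 and 1587 CPM (hour 18), and 762 CPM (hour 22). Its level was thus 329 CPM or more in 6 birds and 14.7 CPM or less in the other 9, with both kinds at hour 10 and hour 18. TRINITY_DN85466_c3_g1, named after its values were seen, was the 1 member that differed over 2-fold in all 7 pairs, with levels between 1.70 and 36.9 CPM.

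Members resembled other genes in some features the rule did not use and differed in others. The transcript with the most reads had a median length of 1560 nt in members and 1693 nt over the 16068 genes. A single listed transcript was found in 23.0% of members and 24.4% of all. The median member had 16.2 CPM and the median gene 25.7 CPM. Measures read from the same levels that ranked the members differed too, and that follows at least in part from the rule. At least 1 library under 3 counts was found in 52 of 200 members (26.0%), against 1.38% of all genes. The highest bird was a median of 19.5-fold above the lowest in members and 3.19-fold over all genes, with 1 CPM added to each. The biological coefficient of variation measures spread around a fit of hour and state beyond counting error. It had a median of 63.8% in members and 27.1% over the 16068 genes, and follows at least in part from the rule.

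The assembly groups related genes into components, a locus may be split among the genes of 1 component, and reads can be shared among these. In 49 members (24.5%) the component sum differed between birds less than 50% as much as the member did, against 12.1% of all genes. Among the members with another gene of the component passing the minimum, 85 in number, there were 120 distinct pairs, of which 51 had a correlation of bird differences over 0.7 and 3 under -0.7. A member with a small share of its component's reads moves the sum little, and reads of near copies can be split between genes, so such members are uncertain as levels of a locus.

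Components with more than 1 member numbered 8, and their members mostly moved together. TRINITY_DN93364_c0_g1 and TRINITY_DN93364_c0_g3 belong to the component with most members, 3, whose bird differences correlated at 0.956 to 0.985. The first had 40.3 and 13.5 CPM at photosensitive hour 10 and the second 36.9 and 11.7 CPM. TRINITY_DN100452_c5_g2 and TRINITY_DN100452_c5_g3 had 32.9 and 37.8 CPM in photosensitive hour 10 bird 2 and 8.47 CPM each in bird 1, with a correlation of 0.986. TRINITY_DN82661_c2_g2 and TRINITY_DN82661_c2_g7 had 326 and 121 CPM in photosensitive hour 10 bird 1 and 44.4 and 14.4 CPM in bird 2, with 0.842. One component, noticed after its values were seen, held members that moved against each other. TRINITY_DN96577_c4_g1 had 0.636 and TRINITY_DN96577_c4_g2 50.9 CPM in photosensitive hour 18 bird 2, while they had 18.1 and 2.96 CPM in photorefractory hour 18 bird 2, and their correlation was -0.850.

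Genes variable in 1 state were also looked at in the other. When genes were ranked on the 4 photosensitive pairs alone, the 200 first had a median difference of 0.658 in the 3 photorefractory pairs, which that ranking did not use, against 0.310 for all genes. Of these 200, 28.0% differed over 2-fold there, against 3.18% of all. Ranked on the photorefractory pairs, the 200 first had 0.716 in the photosensitive pairs against 0.308, and 28.5% against 2.63% differed over 2-fold. The lists of both states shared 34 genes, which is 17.0% of each. In the pairs used for ranking, the medians were 1.45 and 1.51.

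Members co-varied in a few groups. Correlations between genes were taken over the deviations of the 14 paired birds from their group means, which leave 7 free values per gene, so they describe these birds and carry no p-value. All genes share the same libraries, depths and assembly. Of the pairs of members 6.24% had r over 0.9, against 0.807% of the pairs among all 16068 genes, while the median absolute r was 0.375 and 0.36. The differences behind r also chose the members, and were a median of 4.93 times the counting error, against 1.88 over all genes. Counting error therefore lowers r less among members, and genes of 1 assembly component count as separate pairs. The part of the rule in this contrast was not tested. The first component of the members' deviations held 47.4% of their variance and the second 17.4%, against 39.5% and 24.8% over the 16068 genes. Clustering at an average r of 0.7 gave 5 modules of at least 5 members, with 64, 33, 16, 16 and 6 members, or 135 in all. A further 52 members fell into 22 smaller clusters and 13 stood alone.

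Module 1 held 64 members and the genes ranked 1, 3, 4, 5 and 6. Its median level was 48.1 CPM in photosensitive hour 10 bird 2, 22.2 CPM in hour 18 bird 1, 30.5 CPM in hour 22 bird 1, 43.5 CPM in photorefractory hour 18 bird 2 and 21.8 CPM in the lone photorefractory bird of hour 22. The other 10 birds lay between 6.29 and 10.6 CPM and did not overlap with these 5. In 40 of the 64 members (62.5%) the 5 highest birds were exactly these, which held for 88 of the 16068 genes (0.548%).

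The clustering used the differences within groups, so the shared direction of a module is a description of it. Bird 2 was higher in 64 of 64 members at photosensitive hour 10 and at photorefractory hour 18, by a median of 5.64-fold and 5.03-fold. Bird 1 was higher in 64 of 64 at photosensitive hour 22 by 3.08-fold, and in 59 of 64 at photosensitive hour 18 by 2.77-fold. In the other 3 groups neither bird was high, and the medians were 1.13-fold, 1.23-fold and 1.01-fold. The single photorefractory bird of hour 22, which the clustering did not use, lay above the median of the other 14 in 59 of 64 members, by a median of 1.18 on the log2 scale. Over all genes that bird was above the median for 51.2%, and over all 200 members for 71.0%. These counts are no independent support, since that deep library helped 6 of the 64 members over the minimum.

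The summed level of module 1 was 784 to 1210 CPM in the 10 low birds and 2673, 3002, 4066, 5736 and 6307 CPM in the 5 high ones. Its 2 members with most reads were never near 0. TRINITY_DN100148_c1_g1 had 590, 290, 639, 529 and 513 CPM in the 5 birds in the order above and between 95.9 and 273 CPM in the other 10. TRINITY_DN91930_c0_g2 had 638, 448, 287, 660 and 208 CPM in these birds, and between 35.1 and 375 CPM in the others, so that here the birds overlapped. Outside the members, 194 of the other genes passing the minimum (1.21%) followed the module's mean with r over 0.9.

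**Figure D3:**
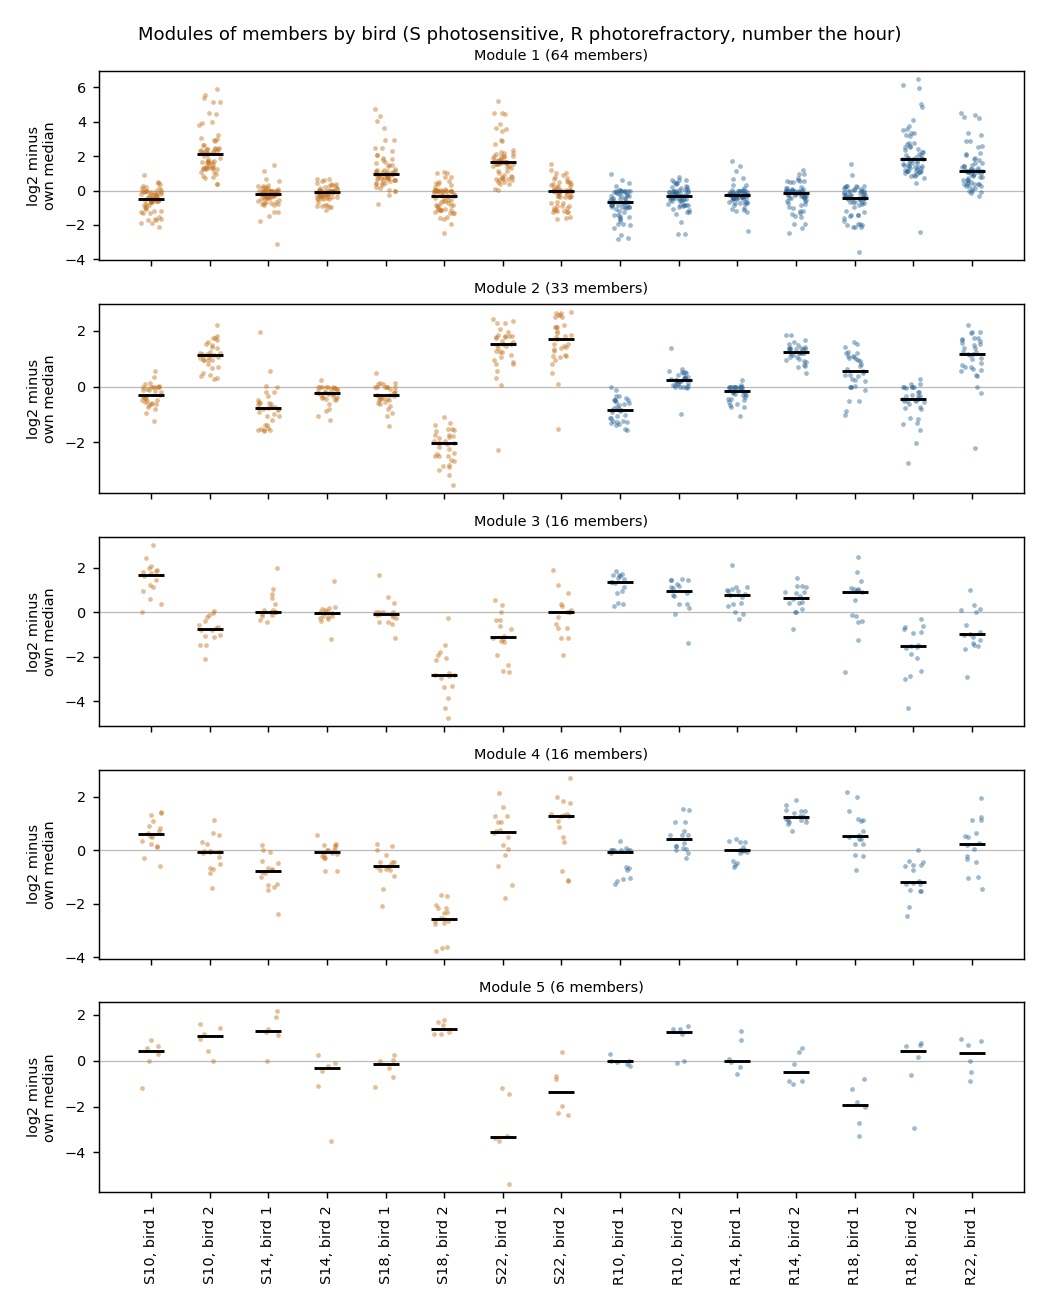
Members of the 5 modules in each of the 15 birds, as log2(CPM + 1) minus the gene's own median over birds, with 1 point per member and a black bar for the median of the module. Module 1 was high in 5 birds of both states, and modules 2, 3 and 4 were lowest in photosensitive hour 18 bird 2.

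Module 2, with 33 members, was lowest in photosensitive hour 18 bird 2, where the median level was 1.25 CPM and where 31 of 33 members had their lowest value. The highest medians were 29.1 and 23.5 CPM in the photosensitive birds of hour 22, 22.3 CPM in photorefractory hour 14 bird 2 and 22.2 CPM in photosensitive hour 10 bird 2, with 19.0 CPM in the lone photorefractory bird of hour 22. TRINITY_DN100725_c8_g2 had 11.0 CPM in the lowest bird and 514 CPM in the highest, and TRINITY_DN86236_c3_g3 had 1.25 and 114 CPM in the same birds. This pattern was common outside the members too, since 973 other genes (6.07%) followed it with r over 0.9.

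Module 3, with 16 members, was highest in bird 1 of hour 10 in both states, at a median of 88.5 CPM in the photosensitive and 84.4 CPM in the photorefractory bird. It was lowest in bird 2 of hour 18 in both states, at 3.33 and 4.88 CPM. All 16 members were higher in bird 1 than in bird 2 at photosensitive hours 10 and 18 and at photorefractory hour 18. TRINITY_DN82642_c1_g2, the member of this module with most reads, had 849 and 195 CPM (hour 10), 323 and 241 CPM (hour 14), 209 and 13.3 CPM (hour 18) and 54.8 and 128 CPM (hour 22) in photosensitive birds. In photorefractory birds it had 677 and 589, 432 and 390, 31.7 and 9.45, and 65.4 CPM. Of the 8 birds of hours 10 and 14, 7 lay above all 7 birds of hours 18 and 22, and photosensitive hour 10 bird 2 with 195 CPM did not. TRINITY_DN100556_c3_g1 ranged from 8.94 CPM in photosensitive hour 18 bird 2 to 251 CPM in photosensitive hour 10 bird 1.

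Module 4, with 16 members, was lowest in photosensitive hour 18 bird 2, at 2.39 CPM and in 15 of 16 members, and highest in photorefractory hour 14 bird 2, at 38.2 CPM. TRINITY_DN99754_c3_g1 had 4.16 CPM in the first of these birds and 144 CPM in the second, and TRINITY_DN98513_c2_g2 had 9.56 and 105 CPM. Module 5, with 6 members, ran from 3.45 CPM in photosensitive hour 22 bird 1 to 77.5 CPM in photosensitive hour 14 bird 1. Modules 2 and 4 were close to each other, with a median r of 0.667 between their members, as were 3 and 4, with 0.661. Module 5 ran against module 4, with -0.520. Photosensitive hour 18 bird 2, which set the low end of modules 2, 3 and 4, is the library that stood apart above. With its pair left out the members formed 7 modules, with 60 of the 64 members of module 1 still together, while leaving out the photorefractory hour 18 pair gave 9 modules and 51 together.

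Whether members differed by state or hour was tested with edgeR's quasi-likelihood test across 70476 genes, with Benjamini-Hochberg adjustment over all of them and a call at an adjusted p of 0.05 or below. The spread between birds of a group, by which the members were chosen, enters the denominator of this test, so the counts of members are set beside those of all genes. No member was called for state, with 0% of all genes called, and the smallest adjusted p of a member was 0.407. Unadjusted, p was under 0.05 in 18 members (9.0%), 8.79% of all genes and 14.0% of the 16068 genes passing the minimum. DESeq2 called 4 members (2.0%), 0.230% of all genes and 0.535% of the 16068, and limma on log2(TPM + 1) called no member. No member was called at hour 14 against hour 10, where 0% of all genes were called, and neither DESeq2 nor limma called a member. An unadjusted p under 0.05 was found there in 13 members (6.50%), 3.14% of all genes and 1.84% of the 16068. At hour 18 against hour 10 no member was called, against 0.00284% of all genes. An unadjusted p under 0.05 was found in 23 members (11.5%), 11.4% of all genes and 15.2% of the 16068. DESeq2 called 1 member (0.5%), 0.945% of all genes and 2.55% of the 16068 at hour 18, and limma no member. Members had a median absolute log2 fold change of 0.45 for state, 0.60 at hour 14 and 0.68 at hour 18, against 0.20, 0.14 and 0.27 over the 16068 genes, and a list chosen for its spread between birds has larger estimates by that choice alone.

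Hour 22 differed from hour 10 in 32 members, 14 higher and 18 lower, which is 16.0% of the members against 18.0% of all genes tested and 31.2% of the 16068 genes passing the minimum. The members' share was thus near that of all genes tested and below that of genes passing the same minimum. The minimum was a mean count over all 15 libraries, so the 3 deep libraries of hour 22 could carry a gene high there over it. Calls of members as higher at hour 22 are therefore no independent support. TRINITY_DN85828_c0_g1, named after its values were seen, had 668 counts in these birds and 0.624 to 11.8 CPM at hours 10, 14 and 18. How many members passed only through the birds of hour 22 was not counted. At an unadjusted p under 0.05 there were 64 members (32.0%), 30.7% of all genes and 48.4% of the 16068. In 30 of the 32 (93.8%) the birds of hours 10 and 22 did not overlap, as in 94.4% of all genes called. RLE factors gave 12 higher and 18 lower, and limma on log2(TPM + 1), which changes both the unit and the test, gave 19 higher and 7 lower. Each of the 32 kept its sign in all 22 alternatives. The count fell to 14 without photosensitive hour 10 bird 1, 17 without photosensitive hour 22 bird 1 and 15 without its bird 2, where 10.8%, 6.72% and 5.39% of all genes were called. It rose to 74 (37.0%) without photosensitive hour 10 bird 2, where 21.5% of all genes were called. The 3 birds of hour 22 also had the deepest libraries and the most genes above 0 of all birds, and the part of depth in these calls was not tested.

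**Figure D4:**
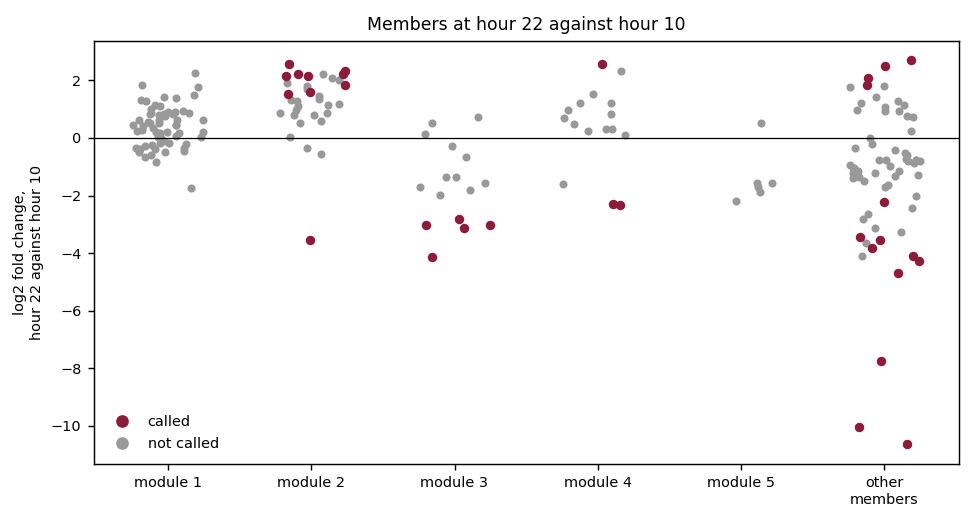
Log2 fold change of the 200 members at hour 22 against hour 10 by edgeR, by module, with members called at an adjusted p of 0.05 or below in colour. With all birds, none of the 64 members of module 1 and 10 of the 33 members of module 2 were called, and without photosensitive hour 10 bird 2 the counts were 27 and 20. Of all genes tested, 18.0% were called with all birds and 21.5% without that bird.

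Calls at hour 22 were counted by module. Module 1 had none by edgeR in any of the 5 tests with all birds and the minimum count, the smallest adjusted p being 0.0589 at hour 22. Unadjusted, p was under 0.05 in 4 of its members at hour 22, 1 for state, 7 at hour 14, 3 at hour 18 and 6 for the interaction, while DESeq2 called 1 for the interaction and limma on log2(TPM + 1) 1 at hour 22. This count rested on photosensitive hour 10 bird 2, a high bird of the module at the reference hour. Without it edgeR called 27 of the 64 at hour 22, and with no minimum count 14. With no minimum count it also called 4 for state, 18 at hour 14, 8 at hour 18 and 44 for the interaction. Of all genes, 0.198%, 0.0593%, 0.302% and 0.705% were called in these tests. With no minimum count the estimate of spread was shared over 312016 genes, and its part in these calls was not tested. At hour 14 the module's estimates lay below 0 in 56 of 64 members, with a median log2 fold change of -0.81, but without photosensitive hour 10 bird 2 they lay above 0 in 45 of 64, with a median of 0.23. In module 2 there were 10 calls, or 20 without that bird, and 30 of 33 estimates lay above 0 with a median of 1.36. Among the 10, TRINITY_DN94299_c1_g1, named after its values were seen, was called as lower, with -3.54, and the others as higher. The minimum count included the deep libraries of hour 22, so estimates and calls of these members as higher are no independent support. In module 3 there were 5 calls, and 13 of 16 estimates lay below 0 with a median of -1.63. Module 4 had 3 calls and module 5 none. In module 4, TRINITY_DN93364_c0_g1 and TRINITY_DN93364_c0_g3, of 1 assembly component, were called as lower, with -2.32 and -2.29. TRINITY_DN88989_c0_g1, named after its values were seen, was called as higher, with 2.56. With limma on log2(TPM + 0.1) modules 2, 3 and 4 had 3, 1 and 0 calls. By edgeR 18.0% of all genes tested and 31.2% of those passing the minimum were called at hour 22. Without photosensitive hour 10 bird 2 these shares were 21.5% and 38.6%, and with no minimum count 3.68% and 26.9%. Members of a module vary together, so their calls are not separate results.

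Members called as higher at hour 22 were mostly long assembled genes and those called as lower mostly short ones. The transcript with most reads had a median length of 2360 nt in the 14 that rose and 279 nt in the 18 that fell, of which 14 were under 500 nt. Among all called genes passing the minimum the medians were 2162 nt for the 2138 higher and 1218 nt for the 2870 lower, with 3.46% and 15.8% under 500 nt. Of the genes not called, 18.5% of the members and 8.41% of all passing the minimum were under 500 nt, so members were more often short without a call too. The lengths moved with the direction of the change and with the deeper libraries of hour 22, and their part in it was not tested.

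TRINITY_DN93677_c2_g2, a gene of module 2, rose at hour 22. At hour 22 the photosensitive birds had 48.7 and 57.9 CPM and the photorefractory bird 42.6 CPM, whereas hour 10 gave 8.20 and 19.7 CPM in the photosensitive and 5.65 and 9.75 CPM in the photorefractory state. The birds of hour 22 lay above all other birds, the next being 23.6 CPM in photorefractory hour 14 bird 2. The log2 fold change was 2.22 with an adjusted p of 0.00973 by edgeR, and it was called in all 22 alternatives, with an adjusted p of 0.0357 at most. TRINITY_DN82138_c2_g1, of the same module, had 27.9, 46.5 and 23.8 CPM (hour 22) against 5.06, 8.53, 2.30 and 8.13 CPM (hour 10). Here too the hour 22 birds were the 3 highest, with a log2 fold change of 2.57, an adjusted p of 0.0118 by edgeR and a highest adjusted p of 0.0518 among the alternatives. The 3 birds of hour 22 held 1318 and 875 counts of the 2 genes, enough over 15 libraries to reach the minimum mean of 50 by themselves. Neither call is therefore independent support for a rise at hour 22, and the adjusted p-values and alternatives share this limit. Whether either gene would pass the minimum without these birds was not counted.

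TRINITY_DN80835_c7_g1 fell at hour 22, from a level at hour 10 of 36.0 and 10.2 CPM (photosensitive) and 19.0 and 8.13 CPM (photorefractory) to 0, 0.106 and 0.112 CPM, with 2 counts in the 3 birds together. All other birds had 6.19 to 26.6 CPM, so hour 22 stood apart from every other hour. The mean at hour 10 was 242-fold the pooled level at hour 22, with an exact Poisson interval of 67.1 to 2002 for the 2 counts. The interval covers the counting error of these 2 counts only and leaves out the spread between birds. The adjusted p was 2.10e-04 by edgeR, and 0.00333 at most in the 22 alternatives, all of which called it. TRINITY_DN82733_c2_g2 had 33.5 and 13.8 CPM (photosensitive) and 4.80 and 37.3 CPM (photorefractory) at hour 10 and no count in the 3 birds of hour 22, at least 197-fold lower when 3 counts over these birds are taken as the limit. It was also at 0 in photosensitive hour 18 bird 1, and its adjusted p was 0.00389 by edgeR and 0.0203 at most. The transcripts with most reads of these genes are 271 and 221 nt long.

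**Figure D5:**
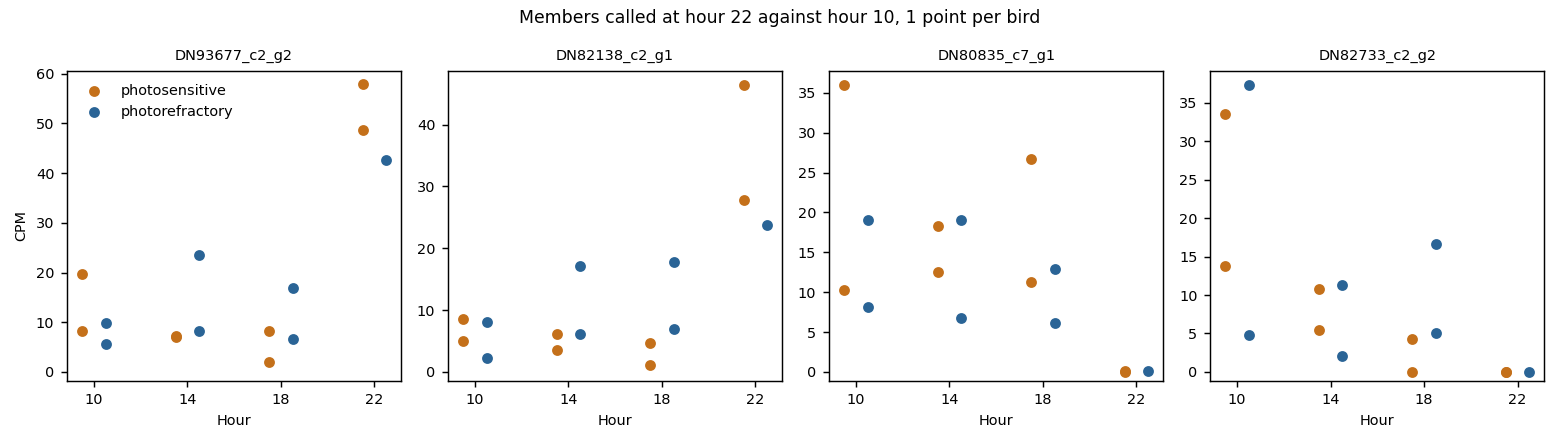
CPM of the members named as called at hour 22 against hour 10, in each bird by hour, with the states in separate colours. TRINITY_DN93677_c2_g2 and TRINITY_DN82138_c2_g1 were highest in the 3 birds of hour 22, and TRINITY_DN80835_c7_g1 and TRINITY_DN82733_c2_g2 had at most 2 counts there.

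The interaction of state and hour was called for 1 member (0.5%), against 0.0709% of all genes and 0.286% of the 16068 genes passing the minimum. An unadjusted p under 0.05 was found in 41 members (20.5%), 9.62% of all genes and 18.7% of the 16068. The members' share was thus near that of genes passing the same minimum. TRINITY_DN99025_c3_g4, a transcript of 232 nt, had 6.34 and 16.5 CPM (hour 10), 30.5 and 25.1 CPM (hour 14), 69.2 and 22.2 CPM (hour 18), and 10.5 and 19.2 CPM (hour 22) in photosensitive birds. In photorefractory birds it had 45.6 and 29.0, 17.4 and 40.9, 1.11 and 4.72, and 0.782 CPM. It was thus higher in the photorefractory birds at hour 10 and lower at hours 18 and 22, without overlap in each case. The adjusted p was 0.0446 by edgeR over 3 degrees of freedom. The call was met in 9 of 22 alternatives and in 5 of the 15 that left out a bird.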

How the data were processed

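Per the labels and the study's methods, reads of 15 hypothalamus libraries were trimmed with Trimmomatic, assembled with Trinity and pseudoaligned with kallisto. The kallisto version was not given in the sources used here, and no genome was involved. For each transcript the authors deposited an estimated count, not normalized, and a TPM (a length-normalized level), for 552023 transcripts in each bird. Estimated counts were summed per assembled gene, scaled to CPM, and members ranked on log2(CPM + 1). No library column was left unmatched, and no sequence or gene name was used. For tests, sums were rounded and genes reaching a count of 5 in 2 or more of 15 libraries were fitted with edgeR 4.0.16 (R 4.3.3, TMM factors). The state test carried hour as a term, the hour tests carried state, and the interaction came from a model of group means. DESeq2 1.42.0, RLE factors, other minimum counts, a block for bird number, leaving out single birds and limma 3.58.1 (on log2(TPM + 1) or with 0.1 added) served as alternatives. With 1 bird at photorefractory hour 22, its spread was taken from the other groups. Modules came from average linkage on 1 - r, cut at 0.3. The state test was checked on simulated data with 200 genes changed by 2 on the log2 scale, of which 200 were called, with 4 others. The simulated spread followed the trend over genes and not the larger spread of the members. The check thus does not cover the members, the hour tests or the interaction. Genes named were the 6 ranked first, the last inside and first outside the list, the 2 with the highest mean CPM overall and in each of the 4 largest modules, up to 2 called per direction with the smallest p, and up to 2 members of 3 components with most members, ties in order of name. The members and lists were chosen with earlier results of these data known. Depth was 3176062 to 9403923 reads per library.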

Additional observations from a re-analysis of the deposited data

Results flagged for a closer look

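TRINITY_DN99025_c3_g4 was singled out because its hour pattern differed between the states, by the test of that difference itself (edgeR's quasi-likelihood interaction test, adjusted p = 0.0446). At hour 18 the photosensitive birds had 69.2 and 22.2 CPM and the photorefractory birds 1.11 and 4.72 CPM. The adjusted p reached 0.209 in the alternatives, and the call was lost in 10 of the 15 that left out a bird. Both photorefractory birds of hour 18 also had the shortest fragments, and the part of fragment length was not tested.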

How the results depend on the processing

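Under other settings of the ranking, between 96 and 170 of the 200 members were chosen again. The number was 96 with a mean count of at least 20, 99 with at least 100, 120 on TPM, 121 on component sums and 128 by the mean of the 7 differences, and 132 to 153 with a pair left out. The members formed 8 modules with TMM-scaled CPM, and 4 to 9 with each pair left out, an alternative chosen after seeing the data. With no minimum count, edgeR called 30 members for state, 28 at hour 14, 43 at hour 18, 100 at hour 22 and 128 for the interaction. These were 15%, 14%, 21.5%, 50% and 64% of members, against 0.198%, 0.0593%, 0.302%, 3.68% and 0.705% of all genes. Of the 16068 genes passing the members' minimum, 2.38%, 0.448%, 3.38%, 26.9% and 8.87% were called. This setting shared the estimate of spread over 312016 genes, against 70476 in the main test, and members were chosen for a large spread. An unadjusted edgeR interaction p was under 0.05 in 87.0% of members and 27.5% of these genes, against 20.5% and 18.7% with the minimum. These counts are therefore no support for state or hour effects in members. DESeq2 called 4 for state, 1 at hour 18 and 6 for the interaction (3.0% against 1.66% of all genes and 5.69% of the 16068). At hour 22 limma on log2(TPM + 0.1) called 13 (6.5% against 15.4% of all genes and 20.3% of the 16068). For the interaction limma on log2(TPM + 1) and a mean count of at least 50 each gave 0. With a bird left out, counts ran from 14 to 74 at hour 22, 0 to 1 at hour 18 and 0 to 2 for the interaction. The median log2 fold change of the genes passing the minimum at hour 22 was -0.10 with TMM and 0.20 on log2(TPM + 1), and changes are relative to it. Equal bird numbers mark no shared animal. The correlation of their differences between groups ran from -0.548 to 0.321, with a median of -0.0196 and 8 of 21 over 0.1. It took both signs, and whether bird number marks a shared batch in some groups was not tested. With the bird number as a replicate block edgeR called 36 members at hour 22 (18.0%, against 12.2% of all genes and 27.0% of the 16068). For the interaction it called 3 (1.5%, against 0.267% of all genes and 1.02% of the 16068). Precision was limited by 2 birds per group, and counts under 3 in at least 1 library of 52 members.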
